A study of Homo sapiens with 24 samples.

Results

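The 246 genes described here are the numbered ZNF genes of human chromosome 19. They were taken from the 37416 genes of the deposited files as the rows on chromosome 19 that are annotated as protein-coding and whose symbol is ZNF followed by digits and an optional letter. A further 259 protein-coding ZNF genes lie on other chromosomes, and 1207 other protein-coding genes lie on chromosome 19. RNA was sequenced from 4 human cell lines that the series calls TNBC (triple-negative breast cancer, lacking hormone receptors and HER2 amplification), namely MDAMB468, MDAMB231, HCC1806 and BT549. Each line carried a lentiviral short hairpin RNA, either shADAR1 against the RNA-editing enzyme ADAR1 or the non-targeting control shNT, with 3 biological replicates in each of the 8 groups and 24 libraries in all. Per the labels' protocols, cells of both arms were exposed to virus for 24 h and then kept in 2 µg/ml puromycin during 72 h of selection, so the controls carry a virus and the selection too. The protocols also list protamine at 10 µg/ml for both arms. The labels do not give the hairpin sequence or the number of hairpins, and they name 1 origin per line, so a difference between lines is a difference between 4 individual cultures.

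C2H2 zinc finger proteins bind DNA through repeated small domains, each folded around a zinc ion held by a pair of cysteines and a pair of histidines. Most of those encoded on chromosome 19 also carry a KRAB domain, which binds the corepressor TRIM28 (KAP1). TRIM28 in turn brings in the histone methyltransferase SETDB1 and heterochromatin proteins, and KRAB zinc finger proteins are known for silencing transposable elements. Their genes arose by tandem duplication and sit in clusters, and their transcripts often hold Alu repeats. A pair of Alu repeats in opposite orientation can fold into double-stranded RNA, the substrate in which ADAR1 converts adenosine to inosine. The files hold read counts, so editing itself was not measured.

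Library totals ran from 10370645 to 97218217 counts, with MDAMB231 shNT replicate 1 the shallowest. ADAR, the targeted gene, averaged 293 to 516 CPM (counts relative to a fixed library total, scaled between libraries by the TMM method) in the shNT groups and 63.9 to 155 CPM in the shADAR1 groups. Its log2 fold change was -2.19 in MDAMB231, -1.94 in BT549, -1.59 in HCC1806 and -1.43 in MDAMB468, past the threshold in every line (largest edgeR adjusted p = 3.18e-05). The epithelial markers EPCAM and CDH1 averaged 188 CPM or more in HCC1806 and MDAMB468. In BT549 EPCAM had 0 counts and in MDAMB231 it averaged 8.95 CPM, with CDH1 under 0.1 CPM in both, while VIM, an intermediate filament of mesenchymal cells, reached 2309 and 4305 CPM there. Of the other listed markers, KRT5, KRT14, KRT17, ZEB1 and FN1 split the lines in the same way. The epithelial KRT8 and KRT18 did not, at 467 and 223 CPM in MDAMB231 against 0.684 and 0.00514 in BT549. Nor did the mesenchymal CDH2, at 0.254 CPM in MDAMB231, 30.0 in HCC1806 and 241 in BT549. The progesterone receptor gene PGR stayed at or under 0.737 CPM, and the oestrogen receptor gene ESR1 at or under 19.1 CPM, its level in HCC1806. ERBB2, the gene of HER2, averaged from 76.0 CPM in MDAMB468 to 100 in HCC1806. Of the listed leukocyte markers, PTPRC stayed at or under 0.533 CPM and CD3E at or under 0.0148. CD68, also on that list, averaged from 2.12 CPM in MDAMB468 to 91.0 in MDAMB231. These are bulk samples, in which fewer cells expressing a gene and less RNA per cell cannot be told apart.

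The members are clustered. With neighbours joined when at most 1 Mb apart, the 246 genes fall into 16 runs, 82 genes on the short-arm side of the largest gap (chr19:24129961-30228290, coordinates as the files list them) and 164 on the long-arm side. The largest runs hold 59 genes from ZNF628 to ZNF446 (chr19:55476332-58481230), 39 from ZNF175 to ZNF331 (chr19:51571298-53580269), 36 from ZNF101 to ZNF254 (chr19:19668796-24129961), 27 from ZNF565 to ZNF573 (chr19:36182060-37817300) and 25 from ZNF653 to ZNF791 (chr19:11483427-12640098). The reads of neighbours cannot always be parted. An exon of another gene overlaps 93 members, on the same strand for 64 and on the opposite strand for 35, and strand use in counting is not given in the sources used here. ZNF492 and ZNF98 share an aligned stretch of 2343 bases, and ZNF417 and ZNF587 one of 2205 bases, at 97% identity or more. Counts of these 4 genes are uncertain.

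Most of the encoded proteins carry several fingers, as their ZNF symbols imply, and most have a KRAB-like box, which the choice of genes did not use. Counted with the pattern of 2 cysteines and 2 histidines in the longest GENCODE 29 coding transcript, the members had a median of 12 fingers (range 0 to 36), and 233 had at least 5. A KRAB-like box was found in 207 of the 246 (84.1%), against 35.9% of the ZNF genes elsewhere and 1.78% of all protein-coding genes. ZNF681, whose change under shADAR1 is given further on, has 11 fingers by this count. The coding stretch of the first finger that is followed by the family's usual linker is shown, with that linker, to make that unit visible. It lies in the last exon, exon 4 of 4, at chr19:23744455-23744532 on the minus strand (GENCODE 29, GRCh38). It is written in the direction of transcription with the codons of the 4 zinc-binding residues in capitals.
ZNF681 finger: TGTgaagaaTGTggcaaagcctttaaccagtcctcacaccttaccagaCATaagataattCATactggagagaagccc
A stretch resembling 7SL RNA, the ancestor of Alu repeats, was found in the exons of the reference transcript of 103 members (41.9%), against 26.3% of the ZNF genes elsewhere and 16.6% of all protein-coding genes. In 35 members (14.2%) such stretches lay in both orientations, against 3.27% of all protein-coding genes. These matches were made in the spliced transcript, so repeats in introns were not counted.

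Nearly every member was detected, at low to moderate levels. Means of at least 1 CPM in the shNT arm were found for 233 of the 246 in BT549, 229 in MDAMB468, 213 in MDAMB231 and 199 in HCC1806, and for 186 in all 4 lines. For protein-coding genes as a whole the share at 1 CPM or more was between 63.3% and 66.5% in each line. Per kilobase of the listed exon length, the median level of a member in the shNT arm was 3.28 RPKM in MDAMB468, 2.77 in BT549, 1.81 in MDAMB231 and 1.63 in HCC1806. A mean under 10 counts in both arms, taken here as a low count, was found for 27 members in HCC1806, 22 in MDAMB231, 10 in BT549 and 9 in MDAMB468. It held in at least 1 line for 36 members and in all 4 for 7. Of the 246, 240 passed the filter on low counts and were tested. The untested 6 were ZNF560, ZNF208, ZNF676, ZNF729, ZNF536 and ZNF541, none above 11 counts in any library.

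The 8 members with the highest median RPKM over the lines were ZNF146, ZNF460, ZNF787, ZNF121, ZNF358, ZNF317, ZNF574 and ZNF581. ZNF146, a protein made almost wholly of fingers and without a KRAB-like box, averaged 40.5 ± 3.48 RPKM in MDAMB468, 27.4 ± 2.38 in BT549, 22.3 ± 0.352 in MDAMB231 and 13.2 ± 1.4 in HCC1806 (SD, n = 3, shNT arm). An exon of a gene on the opposite strand overlaps it. ZNF460 was more even, at 29.6 ± 2.32 RPKM in MDAMB468, 20.8 ± 2.73 in HCC1806, 20.01 ± 1.87 in BT549 and 18.1 ± 0.961 in MDAMB231. For ZNF460 the 3 lower lines lay close to each other for their spread, and MDAMB468 stood above them.

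The shNT level of most members differed between the lines. In the joint edgeR test 229 of the 240 tested members differed (adjusted p under 0.05), where 85.9% of all 21352 genes tested did. The lines split into those in which members were mostly higher and those in which they were mostly lower. In BT549 140 members were higher than the mean of the other 3 lines and 28 lower (58.3% and 11.7%), where 31.5% and 28.0% of all genes were. MDAMB468 had 137 higher and 38 lower (57.1% and 15.8%, against 32.7% and 29.3%). The balance was the reverse in the other pair of lines. HCC1806 had 56 higher and 117 lower (23.3% and 48.8%, against 35.8% and 25.3%). MDAMB231 had 38 higher and 131 lower (15.8% and 54.6%, against 30.2% and 25.8%). The median log2 difference of the members was 0.52 in BT549, 0.45 in MDAMB468, -0.36 in HCC1806 and -0.41 in MDAMB231, and that of all genes lay between -0.03 and 0.10. In the same order of lines, it was 0.28, 0.10, -0.06 and -0.24 for the ZNF genes elsewhere. For the other coding genes of chromosome 19 it was 0.16, 0.11, 0.01 and -0.24. The lean in BT549, MDAMB468 and MDAMB231 was thus not confined to the members, though their medians were larger in size than those of both sets. Each line's comparison uses all 12 shNT libraries, so the 4 comparisons share samples and are not independent. Between the lines, the order from more to less ZNF expression did not follow VIM or EPCAM: BT549 and MDAMB231 both had high VIM, and HCC1806 and MDAMB468 both had high EPCAM.

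**Figure D1:**
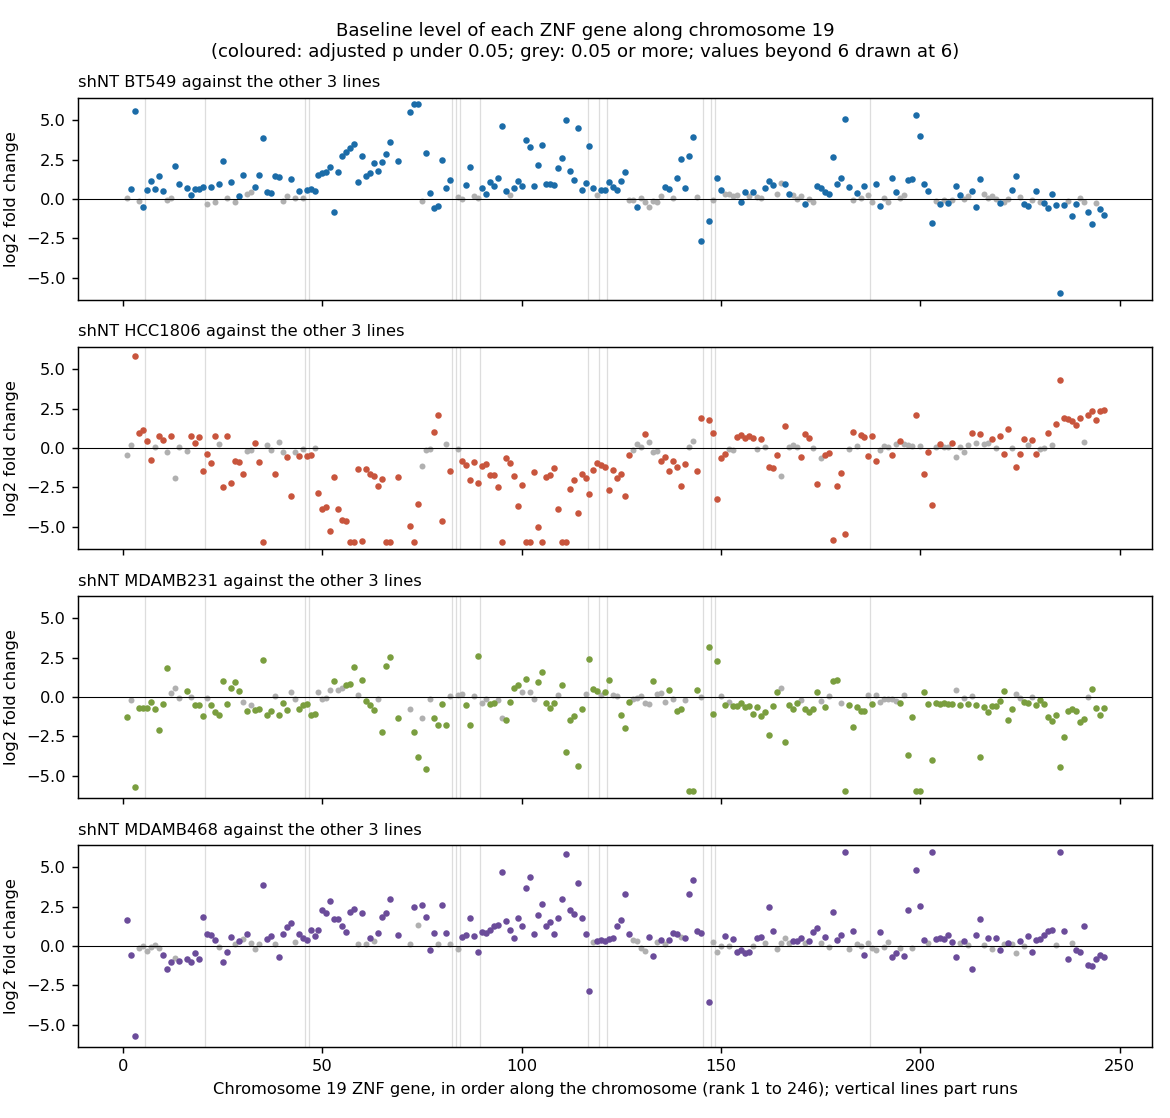
Log2 fold change of each tested member between the shNT arm of 1 line and the averaged shNT arms of the other 3 (vertical axis), in order along chromosome 19 (horizontal axis, rank 1 to 246), 1 panel per line. Coloured points passed an edgeR adjusted p of 0.05 and grey points did not. Vertical lines part the 16 runs and values beyond 6 in size are drawn at 6. In HCC1806 the points of the run from ZNF101 to ZNF254 and of the run from ZNF565 to ZNF573 lie mostly below 0, and in the last run, at the right, more coloured points lie above 0 than below.

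The lines' balance of higher and lower members varied from run to run, which is described here by counts. Within the run from ZNF101 to ZNF254, 26 of the 33 tested members were lower in HCC1806 and 2 higher, with a median log2 difference of -2.41. In BT549 29 of the 33 were higher (median 1.74) and in MDAMB468 25 (median 1.28), while MDAMB231 was mixed, with 7 higher and 14 lower (median -0.15). Within the run from ZNF565 to ZNF573, all 27 members were lower in HCC1806 (median -2.02), all 27 were higher in MDAMB468 (median 1.56) and 26 were higher in BT549 (median 1.08). MDAMB231 was again mixed there, with 6 higher and 12 lower (median -0.30). Of the 5 other coding genes inside that run 3 were tested, the zinc finger genes ZFP14, ZFP82 and ZFP30, whose symbols fall outside the ZNF rule, and all 3 were lower in HCC1806 as well (median -3.04). In the run nearest the end of the long arm, ZNF628 to ZNF446, the picture differed: 25 of 59 members were higher in HCC1806 and 9 lower (median 0.23), while 42 of 59 were lower in MDAMB231 (median -0.47). In BT549 17 of that run were higher and 19 lower, and in MDAMB468 27 and 15. Of the 33 other coding genes tested inside it, 9 were higher and 7 lower in HCC1806 (median 0.20). In MDAMB231 6 of these were higher and 11 lower (median -0.37). The run from ZNF557 to ZNF846 (14 tested) went against the balance of 2 lines, with 8 lower and 1 higher in MDAMB468 (median -0.65) and 7 higher and 2 lower in HCC1806 (median 0.19). The other coding genes inside that run, 38 of them tested, leaned the same way. Of these 19 were lower and 8 higher in MDAMB468 (median -0.57), and 14 were higher and 6 lower in HCC1806 (median 0.18). The runs from ZNF653 to ZNF791 and from ZNF575 to ZNF296 followed the lines' balance. In HCC1806 they had 3 and 2 members higher and 13 and 14 lower. In MDAMB468 they had 14 and 16 higher and 3 and 1 lower. The run from ZNF175 to ZNF331 was near even in HCC1806, with 12 higher and 15 lower. In MDAMB231 it had 5 higher and 26 lower. Under RLE and upper-quartile scaling the HCC1806 medians of the runs from ZNF101, from ZNF565 and from ZNF628 kept their signs, at -2.43 and -2.45, -2.03 and -2.05, and 0.22 and 0.20 in the same order.

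Some members were all but absent from a line and well expressed in another. With silence defined as at most 3 counts in each shNT library of a line and a mean of at least 1 CPM in another line, 14 of the 236 members that reached 1 CPM were silent somewhere (5.93%), against 9.14% of 14527 protein-coding genes. By line the silent members were uneven: 10 members in HCC1806 (4.24%, against 1.47% of protein-coding genes) and 7 in MDAMB231 (2.97%, against 3.57%), but only ZNF135 in BT549 (0.424%, against 4.42%) and only ZNF556 in MDAMB468 (0.424%, against 3.82%). ZNF99, ZNF781, ZNF677 and ZNF835 were silent in both HCC1806 and MDAMB231. The rule depends on depth, since MDAMB231 shNT replicate 1 has few counts. Asked of both arms, 7 members were silent, and by a mean under 0.1 CPM 20 were, alternatives that were added after seeing the data.

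ZNF667 went from well expressed to 0 counts. Its shNT libraries held 24.2, 24.0 and 23.0 CPM in BT549, 16.3, 16.9 and 20.9 in MDAMB468, 4.71, 3.74 and 4.62 in HCC1806, and 0 counts in all 3 MDAMB231 libraries. BT549 thus stood at least 799-fold higher than MDAMB231, taking 3 counts over the 3 libraries as the limit that a count of 0 allows. An antisense gene overlaps ZNF667, and reads of the 2 strands may be pooled in this count. ZNF43, a finger protein gene of the ZNF101 to ZNF254 run, held 41.3, 40.1 and 39.6 CPM in BT549, 25.4, 31.5 and 30.7 in MDAMB468 and 23.3, 24.3 and 21.2 in MDAMB231. In HCC1806 it had 4, 2 and 0 counts, which misses the silence rule by 1 count in 1 library. ZNF135 was silent in BT549, with 2, 3 and 0 counts, and held 36.3, 37.4 and 31.3 CPM in MDAMB468 and 8.40, 7.95 and 12.3 in HCC1806. In MDAMB231 ZNF135 was also low, at 2, 6 and 2 counts. For each of these 3 genes the libraries of the line with the fewest counts lay far below those of the line with the most, and the joint test across lines passed (largest edgeR adjusted p = 1.56e-15, for ZNF667).

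Each of these 3 genes had at most 4 counts in every shNT library of a line and averaged over 20 CPM in another, as did ZNF793, ZNF677, ZNF835 and ZNF229. The 3 were picked as examples, and the 250 bases before their RefSeq start are printed (RefSeq, GRCh38.p14, written 5′ to 3′ on the gene's strand, every CG dinucleotide in capitals). They lie at chr19:56477346-56477595 on the minus strand for ZNF667, chr19:58058989-58059238 on the plus strand for ZNF135 and chr19:21836183-21836432 on the minus strand for ZNF43.
ZNF667: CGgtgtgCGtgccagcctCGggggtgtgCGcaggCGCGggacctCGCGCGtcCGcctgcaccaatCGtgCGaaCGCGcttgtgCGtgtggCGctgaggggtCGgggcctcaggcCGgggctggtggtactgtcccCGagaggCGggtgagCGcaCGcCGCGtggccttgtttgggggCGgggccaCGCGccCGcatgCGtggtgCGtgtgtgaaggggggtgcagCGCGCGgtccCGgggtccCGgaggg
ZNF135: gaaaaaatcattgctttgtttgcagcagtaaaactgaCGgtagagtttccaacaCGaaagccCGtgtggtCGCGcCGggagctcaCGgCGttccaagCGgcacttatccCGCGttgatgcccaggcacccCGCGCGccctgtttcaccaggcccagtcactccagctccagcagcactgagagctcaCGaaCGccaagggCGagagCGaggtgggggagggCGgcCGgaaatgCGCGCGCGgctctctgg
ZNF43: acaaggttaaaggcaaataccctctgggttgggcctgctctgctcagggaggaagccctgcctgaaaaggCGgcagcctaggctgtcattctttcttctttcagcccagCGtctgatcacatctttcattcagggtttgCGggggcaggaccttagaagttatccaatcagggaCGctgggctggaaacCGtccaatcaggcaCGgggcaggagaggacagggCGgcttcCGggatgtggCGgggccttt
The printed stretches hold 35 CG dinucleotides for ZNF667, 24 for ZNF135 and 9 for ZNF43. CG reads the same on both strands, and in windows of 300 bases around the start it was counted in the 215 members that matched RefSeq. Their median was 20 against 14 for all 27305 genes with such a window, and 93.5% of members had at least 10 against 56.0% of all. The 11 silent members that matched had a median of 17 (range 8 to 42), and the 169 members at 1 CPM or more in every line a median of 21. These counts describe the sequence alone.

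**Figure D2:**
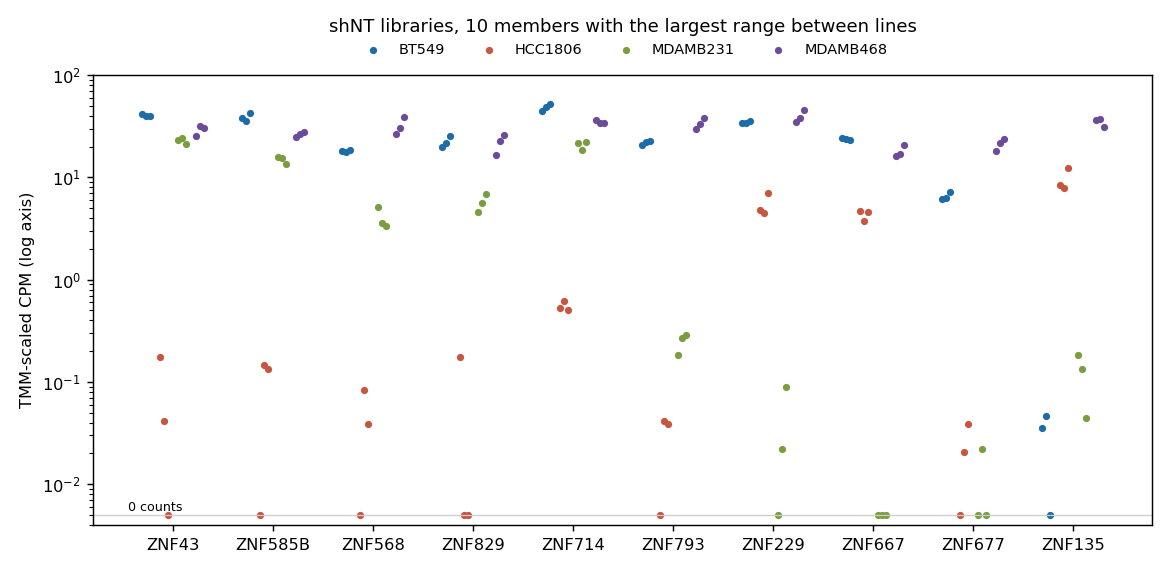
Level of the 10 members with the largest range between lines, in TMM-scaled CPM on a log axis, in the 12 shNT libraries (1 point each, coloured by line). Libraries with 0 counts are drawn on the grey line at the bottom. For ZNF43, ZNF585B, ZNF568, ZNF829, ZNF714 and ZNF793 the HCC1806 points are the lowest, and for ZNF229 and ZNF667 those of MDAMB231 are.

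Other members, named by the range between lines, by silence in a line or as extremes of a line, behaved alike within lines. ZNF229 held 33.8 to 35.3 CPM in BT549 and 34.5 to 45.7 in MDAMB468, against 4.54 to 7.03 in HCC1806 and 0, 1 and 4 counts in MDAMB231. ZNF677 was found in MDAMB468 (18.2, 21.5 and 24.0 CPM) and BT549 (6.21, 6.36 and 7.19), and had 3 counts over the HCC1806 and 1 count over the MDAMB231 shNT libraries. ZNF835 reached 20.6 ± 1.99 CPM in MDAMB468 and stayed under 0.1 CPM on average in the other 3 lines (log2 difference 9.14, edgeR adjusted p = 2.07e-17). ZNF556 was expressed in HCC1806 (13.4 ± 1.90 CPM) and BT549 (11.5 ± 1.62) and had 3 counts in MDAMB231 and 4 in MDAMB468. ZNF625 had 0 counts in the 3 HCC1806 libraries and 3.71 ± 0.553 CPM in BT549, at least 152-fold higher. A member with its highest level in MDAMB231 was rarer. ZNF792 averaged 31.3 ± 3.46 CPM there and 8.19 or less in the other lines (log2 difference 2.60, edgeR adjusted p = 5.22e-15), and ZNF114 averaged 12.1 ± 2.67 CPM there and 5.71 or less elsewhere (3.20, edgeR adjusted p = 3.42e-13).

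The corepressor through which KRAB zinc finger proteins act was itself unequal. TRIM28, on chromosome 19, averaged 3051 ± 112 CPM in HCC1806 shNT, against 768 ± 9.73 in MDAMB468, 602 ± 65.6 in MDAMB231 and 532 ± 96.7 in BT549 (log2 difference of HCC1806 from the others 2.28, edgeR adjusted p = 2.17e-16).

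Under shADAR1 no member passed the threshold in any single line in the fit that does not pair the arms, and on average over the lines 6 did. A fit that pairs same-numbered libraries, given further on, called more members in BT549, MDAMB231, MDAMB468 and the average. In edgeR's quasi-likelihood test 0 of 240 members were called in BT549, HCC1806, MDAMB231 and MDAMB468, where 0.473%, 0.0468%, 2.01% and 0.0375% of all genes were called. With no adjustment, a p under 0.05 was reached by 6, 12, 23 and 2 members in the same order, where 6.42%, 4.35%, 11.7% and 3.76% of all genes reached it. As shares of 240, the counts lie below those of all genes in BT549, MDAMB231 and MDAMB468 and slightly above in HCC1806. DESeq2 called 2, 0, 5 and 0 members, where it called 1.4%, 0.197%, 3.8% and 0.197% of all genes. Most estimates were small and a little above 0. Of the 240, 173 lay above 0 in BT549, 160 in MDAMB231, 153 in HCC1806 and 125 in MDAMB468. These are 72.1%, 66.7%, 63.8% and 52.1%, where 52.7%, 49.7%, 50.8% and 52.3% of all genes lay above 0. In the first order of lines, the median log2 fold change was 0.07, 0.05, 0.09 and 0.01, against 0.01, 0.00, 0.00 and 0.01 for all genes. For the ZNF genes elsewhere it was 0.05, 0.06, 0.02 and 0.02. For the other coding genes of chromosome 19 it was -0.0046, -0.02, 0.06 and 0.00. In MDAMB231 59.4% of these lay above 0, so the lean there was not confined to ZNF genes. Under upper-quartile scaling the members' median in MDAMB468 was on the other side of 0, at -0.01. In the other 3 lines the members' median stayed above 0 under RLE and upper-quartile scaling. The members' summed level was 5265 ± 91.5 CPM with shADAR1 and 5019 ± 88.5 with shNT in BT549, and 3610 ± 216 and 3399 ± 267 in MDAMB231. In HCC1806 it was 4656 ± 263 and 4535 ± 374, and for MDAMB468 4955 ± 205 and 4942 ± 454. Between the arms, the summed levels of single libraries did not overlap in BT549 and overlapped in the other 3 lines. Within same-numbered pairs the shADAR1 sum was the higher in 3 of 3 pairs in BT549, in HCC1806 (4357 over 4105, 4761 over 4724 and 4851 over 4777) and in MDAMB231 (3365 over 3095, 3772 over 3595 and 3694 over 3505).

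**Figure D3:**
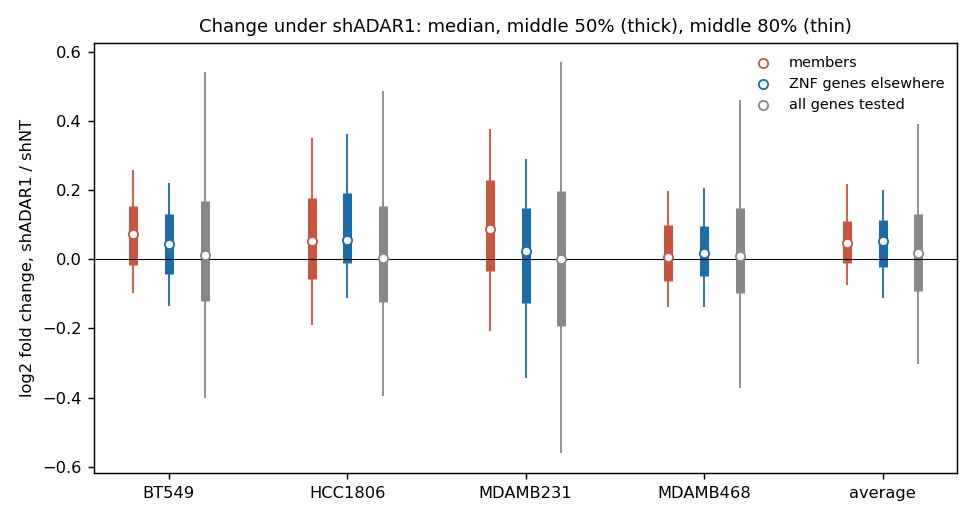
Log2 fold change of shADAR1 over shNT (vertical axis) in each line and on average over the 4 lines, for the tested members, the ZNF genes elsewhere and all genes tested. Open circles are medians, thick bars the middle 50% of genes and thin bars the middle 80%. The members' medians lie at 0.09 in MDAMB231, 0.07 in BT549, 0.05 in HCC1806 and 0.01 in MDAMB468, and their bars are narrower than those of all genes.

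With the replicate number as a block, a fit that compares same-numbered libraries of the 2 arms within a line, more members passed. BT549 had 8 higher and 1 lower, where 2.48% and 2.66% of all genes were called. The risers were ZNF558, ZNF724, ZNF780B, ZNF615, ZNF320, ZNF460, ZNF606 and ZNF544, by 0.23 (ZNF544) to 0.40 (ZNF615) on the log2 scale, and ZNF45 fell by 0.37. MDAMB231 had 16 higher and 3 lower (5.08% and 6.32% of all genes). Its risers included ZNF274 (0.37), ZNF681 (0.61), ZNF543 (0.37), ZNF787 (0.32), ZNF551 (0.36) and ZNF850 (0.36), and the members that fell were ZNF45 (-0.42), ZNF714 (-0.36) and ZNF845 (-0.34). The 16 of MDAMB231 also hold ZNF667 (5.01), which had 0 counts in each shNT library there. ZNF558, ZNF615 and ZNF544 rose and ZNF45 fell in both BT549 and MDAMB231. HCC1806 had 0 members, where 2.1% of genes were called, with 39 members at an unadjusted p under 0.05, as 12.9% of all genes were. In MDAMB468, where the numbers could not be read as pairs, the same fit gave only ZNF841, lower by -0.36, where 1.66% of genes were called.

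On average over the lines 4 members rose and 2 fell in the fit without the block, where 1.26% of all genes rose and 1.7% fell, so that 1.67% and 0.833% of members is near the background. Estimates above 0 were found for 174 of the 240 (72.5%, against 55.0% of all genes), with a median of 0.05 against 0.02 for all genes. Of the ZNF genes elsewhere 68.5% lay above 0, with a median of 0.05. With the block 27 members rose and 2 fell (7.25% and 5.96% of all genes), and all 6 of the first fit were among them; this fit holds MDAMB468, whose numbers were not read as pairs. Without the block the count of 6 dropped to between 1 and 3 on leaving out any 1 of 15 libraries. These were each BT549 library, each MDAMB468 library other than shNT replicate 3, HCC1806 shADAR1 replicate 1, MDAMB231 shADAR1 replicate 3, and MDAMB231 shNT replicates 1 and 2.

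ZNF681, a KRAB-like gene with 11 fingers in the ZNF101 to ZNF254 run (ENSG00000196172, chr19:23739195-23758891), rose on average over the lines. In BT549 the shNT libraries held 10.3, 12.1 and 12.2 CPM and the shADAR1 libraries 13.3, 14.6 and 13.9. In MDAMB468 they held 11.6, 12.4 and 12.5 against 14.95, 14.8 and 14.8, and in MDAMB231 2.86, 2.58 and 2.28 against 4.02, 4.06 and 3.52. In HCC1806 the level was low, at 7, 13 and 14 counts in shNT and 23, 32 and 30 in shADAR1, or 0.308, 0.270 and 0.270 against 0.529, 0.649 and 0.340 CPM. Every shADAR1 library lay above every shNT library of its line. The average log2 fold change was 0.49 (SE 0.0904, edgeR adjusted p = 0.00161), and it stayed past the threshold in all 24 fits that left out 1 library (0.44 to 0.56).

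ZNF181 (ENSG00000197841, chr19:34734155-34745378) rose on average by 0.28 (SE 0.0681, edgeR adjusted p = 0.0237). Its libraries held 12.2, 12.1 and 11.4 CPM in BT549 shNT and 13.6, 15.2 and 14.3 in shADAR1, and 4.44, 3.95 and 4.42 against 5.47, 4.99 and 6.01 in HCC1806. These arms did not overlap, whereas those of MDAMB231 (5.63 to 6.10 against 6.0 to 8.10) and MDAMB468 (10.2 to 12.5 against 11.7 to 13.9) did. The call was lost on leaving out BT549 shADAR1 replicate 2, MDAMB231 shADAR1 replicate 1, MDAMB468 shADAR1 replicate 3 or MDAMB468 shNT replicate 2, and without a filter on low counts (adjusted p = 0.102).

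ZNF724 (ENSG00000196081, chr19:23221599-23250390), a neighbour of ZNF681, rose on average by 0.20 (SE 0.0517, edgeR adjusted p = 0.0303). BT549 showed the widest separation, with 25.4, 28.9 and 28.4 CPM in shNT and 35.0, 37.5 and 33.5 in shADAR1. The arms also did not overlap in HCC1806 (20.2 to 24.3 against 24.3 to 30.9) and MDAMB468 (19.2 to 21.4 against 21.7 to 22.9), and did in MDAMB231 (21.6 to 22.3 against 21.0 to 24.2). The call was lost in 11 of the 24 fits that left out 1 library and without a filter (adjusted p = 0.0956).

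ZNF45 (ENSG00000124459, chr19:43912629-43935278), in the run from ZNF575 to ZNF296, fell on average by 0.22 on the log2 scale (SE 0.0609, edgeR adjusted p = 0.0469). BT549 held 34.6, 37.7 and 34.7 CPM in shNT and 27.5, 28.6 and 26.8 in shADAR1, and MDAMB231 29.7, 34.1 and 31.9 against 21.0, 25.4 and 25.1. The arms did not overlap in these 2 lines. In HCC1806 the means were 29.7 ± 3.76 and 29.7 ± 3.24, and in MDAMB468 56.4 ± 9.06 and 52.6 ± 6.03, with overlapping arms. The call was lost in 19 of the 24 fits without 1 library. In the blocked test of a difference between lines ZNF45 passed (edgeR adjusted p = 0.0145), as did ZNF627, ZNF432 and ZNF761, where 4.69% of genes were called. Without the block that test called 0 members, where 0.0234% of all genes were called. An unadjusted p under 0.05 was found for 6 members and 4.44% of all genes, and DESeq2 called 0 members and 0.585% of all genes.

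The averages of ZNF667 and ZNF415 rested on low counts in 1 line. ZNF667 (ENSG00000198046, chr19:56439325-56478065) averaged 1.27 (SE 0.345, edgeR adjusted p = 0.0489), but its estimate lay between 0.07 and 0.10 in 3 lines. In MDAMB231 it had 0 counts in each shNT library and 0, 2 and 6 in shADAR1, and the fitted fold change there (4.81) depends on the prior count. The call was lost in 20 of 24 fits without 1 library and with DESeq2 (adjusted p = 0.0697). ZNF415 (ENSG00000170954, chr19:53107879-53133077) averaged -0.55 (SE 0.151, edgeR adjusted p = 0.0467), with -1.88 in HCC1806, where it had 4, 15 and 7 counts in shNT and 3, 3 and 4 in shADAR1. Its estimate was -0.40 in MDAMB231, -0.02 in MDAMB468 and 0.09 in BT549, and the call was lost in 20 of 24 such fits. ZNF677, ZNF415 and ZNF667 had the smallest p in the unblocked test between lines (edgeR adjusted p = 0.488, 0.709 and 0.983), and each had a low count in at least 1 line.

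**Figure D4:**
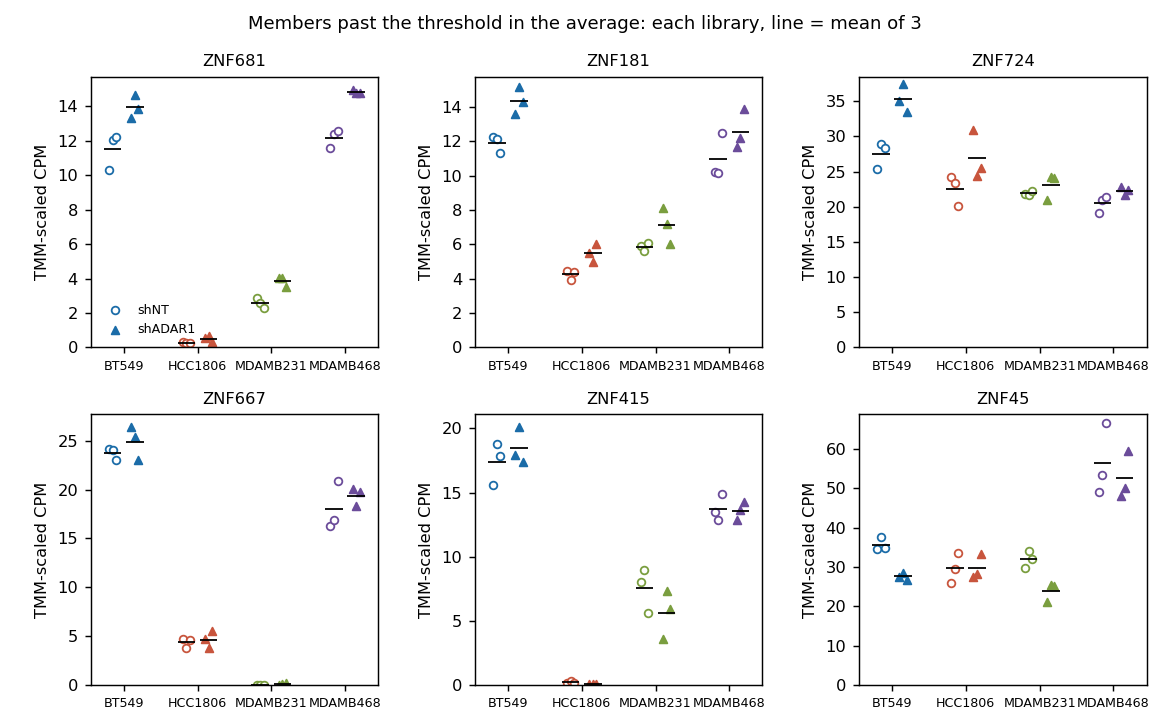
Level in TMM-scaled CPM (vertical axis, from 0) of the 6 members past the threshold in the average of the fit without the block, in all 24 libraries by line. Open circles are shNT and filled triangles shADAR1 libraries, and the short black line is the mean of 3. The triangles of ZNF681 lie above the circles in every line, those of ZNF45 lie below the circles in BT549 and MDAMB231, and ZNF667 is near 0 in MDAMB231 and ZNF415 near 0 in HCC1806.

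Next by p in the average, and not past the threshold, were ZNF793 (0.63, SE 0.18, edgeR adjusted p = 0.0663), ZNF543 (0.21, SE 0.063, adjusted p = 0.0823), ZNF274 (0.18, SE 0.054, adjusted p = 0.0825) and ZNF441 (0.29, SE 0.092, adjusted p = 0.114). ZNF274, which is known to bind the 3′ ends of other ZNF genes and to recruit SETDB1 there, held 49.4, 51.9 and 53.0 CPM in MDAMB231 shNT and 71.1, 65.2 and 65.3 in shADAR1. Its arms did not overlap in that line or in BT549 (73.2 to 77.1 against 78.4 to 79.8) and overlapped in HCC1806 and MDAMB468. ZNF543 held 13.5, 12.98 and 12.6 CPM against 17.97, 16.4 and 16.2 in MDAMB231. With the block all 4 passed in the average.

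On average over the lines, the median log2 fold change was 0.04 for the 103 members with a 7SL-like stretch (76 above 0) and 0.05 for the 137 tested without (98 above 0). For the 35 with stretches in both orientations it was 0.03 (27 above 0). Across all protein-coding genes it was 0.02 with such a stretch and 0.01 without. Members with a KRAB-like box had a median of 0.05 (148 of 203 above 0) and those without 0.03 (26 of 37 above 0). Across all protein-coding genes, which include the members, it was 0.06 with the box (240 of 319 above 0) and 0.01 without. The KRAB split was not alike in every line. In BT549 members with the box had a median of 0.09 (154 of 203 above 0) and those without 0.00 (19 of 37), whereas in MDAMB468 the medians were -0.0024 (101 of 203) and 0.05 (24 of 37). All 6 members called in the average had the box. These splits are given as counts, and no difference between them was tested.

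Of the 30 genes listed for the TRIM28 pathway, CBX1, which encodes a heterochromatin protein, was the only gene called under shADAR1 in any line or in the average, without the block. It fell in MDAMB231 from 113 ± 1.94 to 88.9 ± 2.41 CPM (-0.35, SE 0.0798, edgeR adjusted p = 0.0183) and on average over the lines (-0.25, SE 0.0398, edgeR adjusted p = 0.000425). This 1 call is 3.33% of the list, where 2.01% of all genes were called in MDAMB231 and 2.96% in the average. For the list as a whole it is thus near the background. TRIM28 and SETDB1 did not pass on average, with estimates of 0.02 (SE 0.0578) and 0.01 (SE 0.0659), and the median of the list was 0.00 against 0.02 for all genes.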

How the data were processed

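Total RNA of 24 libraries was sequenced after removal of ribosomal RNA, per the labels' protocols. The submitters' processing notes name bcl2fastq, STAR, Subread, featureCounts and edgeR; build, annotation and strand setting are not given in the sources used here. Per the file headers, the authors deposited for each gene a read count, a CPM value and an RPKM value. The CPM equals the count over the library total. RPKM served levels between genes. Of the genes, 31354 of 37416 have the same span in GENCODE 29 (GRCh38), which supplied the gene types. Symbols came from a separate reference list of gene names, for 33972 genes.

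Counts were fitted with edgeR 4.0.16 (R 4.3.3): TMM scaling, filterByExpr, 1 coefficient per group over all 24 libraries, quasi-likelihood F tests and Benjamini-Hochberg adjustment over 21352 genes, threshold 0.05. The script was tested on simulated data. Levels are CPM scaled by the TMM factors. DESeq2 1.42.0, RLE and upper-quartile scaling, other filters, a replicate block, a line's own libraries and leaving out each library were alternatives. Same-numbered libraries of both arms correlated over 0.1 in their deviations for every replicate in BT549 (0.139 to 0.250), HCC1806 (0.242 to 0.443) and MDAMB231 (0.149 to 0.348), so the numbers were read as pairs there. In MDAMB468 replicates 1 and 2 gave 0.165 and 0.166 and replicate 3 gave 0.0651, and its numbers were not read as pairs. Libraries of unlike number were not compared, so the cut of 0.1 is a choice. The labels call the replicates biological, and no pair of libraries agreed within sampling noise.

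Members and lists were chosen with earlier results of these data known. Genes were named by rule: per line and on average those past the threshold, then those of smallest p; in the shNT arm the highest in RPKM, the widest range between lines (pseudocount 0.5 CPM), the silent members and the extremes of each line. Others were named after their values were seen: the members called with the block, the neighbours in a run, and ZNF274 and ZNF543 by library. The baseline level of TRIM28 was given outside these rules. Matches to 7SL RNA used BLAST 2.17.0 (e-value 1e-05), and KRAB-like boxes a short pattern in the first 200 residues. The 30 genes of the TRIM28 pathway were a fixed list.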

Additional observations from a re-analysis of the deposited data

How the results depend on the processing

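The baseline differences between lines kept their counts within 1.5 times under every alternative run, with 224 to 230 members differing between lines when 1 library was left out. The counts of members changed by shADAR1 were small and moved more. Shares of all genes called are given above for DESeq2 in single lines and for the block. For the DESeq2 average, the other scalings, the other filters, the own-library fits and the fits without 1 library they are not given. Those counts show only how far the number of members moved, and cannot be set against the background. On average over the lines the count of 6 became 10 with DESeq2 (8 higher, 2 lower), 1 without a filter on low counts (ZNF681) and 29 with the replicate block, and 1 to 7 on leaving out 1 library. Without a filter 246 members and 31788 genes were tested in place of 240 and 21352. In BT549 the count of 0 became 2 with DESeq2 (ZNF724 and ZNF45), 9 with the replicate block and 1 in a fit of its own libraries (ZNF45). In MDAMB231 it became 1 under RLE scaling (ZNF45), 2 under upper-quartile scaling (ZNF551 and ZNF274), 5 with DESeq2 (ZNF681, ZNF850, ZNF45, ZNF551 and ZNF274), 3 with at least 10 counts in every library (ZNF45, ZNF551 and ZNF274), 19 with the replicate block and 0 to 2 on leaving out 1 library. In MDAMB468 the block gave 1, and in the test between lines 4. The count of silent members became 7 when both arms were asked, an alternative added after seeing the data. The fits with another filter tested another number of genes. For the other alternatives the cause was not tested. The block moved no baseline count by over 1.5 times. No result changed direction under an alternative, other than the near-0 median of MDAMB468 named above. ZNF681, ZNF415 and ZNF667 were not tested with at least 10 counts in every library. The depth of MDAMB231 shNT replicate 1, the shallowest library, limits what can be read of members at a few counts there.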
